A study of Rattus norvegicus with 6 samples.

Results

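The genes examined here encode the chains of the collagens. They are the 44 genes of the deposited count table, of 22574 listed in all, whose symbol has the form Col, a type number, the letter a and a chain number, and they were chosen by name rather than by their values. RNA of rat aortic vascular smooth muscle cells (RASMCs), primary cells from the aorta of male Sprague-Dawley rats, was read in 6 libraries. Cells of 3 libraries, the group labelled CitH3+dsDNA, had received H3CIT, that is histone H3 with citrullinated arginines, at 0.03 μM plus dsDNA (DNA in double strands) at 300 ng/ml. Cells of the other 3 were controls that received bovine serum albumin. The length of the challenge is not given in the sources used here. According to the reporting summary, wells of cells from the same rat served as replicates in vitro, so p-values measure the spread between wells and libraries, not between animals. The comparison asks which collagen transcripts differ when smooth muscle cells meet components of extracellular traps.

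Collagens are secreted proteins whose chains wind around each other into a helix. Fibrillar collagens (types I, II, III, V, XI, XXIV and XXVII) form the banded fibers that give the arterial wall and the fibrous cap of a plaque their tensile strength, with type I built from the products of Col1a1 and Col1a2 and type III from Col3a1 alone. Type IV collagen forms the network of the basement membrane around each smooth muscle cell, where types XV and XVIII are also found. The remaining types make beaded microfibrils (type VI), short-chain networks (types VIII and X), coats on the surface of fibrils (the FACIT collagens) or membrane-spanning proteins.

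The transcripts of type I collagen fell about 5-fold after H3CIT+dsDNA, and no other chain was called. Of the 44 chains, 11 are fibrillar, 8 belong to the basement membrane group and 25 to the others. With too few counts in the other 16, 28 chains were tested. A gene was called at a Benjamini-Hochberg adjusted p-value under 0.05 in the quasi-likelihood test of edgeR, two-sided and adjusted over all 12591 genes tested. Col1a1 and Col1a2 were called lower, which is 2 of 28 tested chains, where 0.262% of all genes tested were called lower. Under the 3 other scalings of library size tried, both stayed lower and called, and none of the remaining chains was called. With robust dispersion estimates Col1a2 lost its call (adjusted p = 0.112 from edgeR). No chain was called higher with all libraries in the test, where 1.94% of all genes tested were. Without H3CIT+dsDNA replicate 2, Col12a1 was called higher. The median log2 fold change of the 28 chains was 0.02, against -0.00 for all genes tested.

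Col1a1, the gene of the chain that is present in most copies in type I collagen, was counted 16918, 19877 and 21222 times in the challenged libraries, where the control libraries held 95878, 96424 and 101346 counts. Every challenged library lay far below every control. Levels are given in CPM, a gene's counts relative to the total of its library after TMM scaling. Col1a1 stood at 5343 ± 134 CPM (SD, n = 3) in controls and at 1077 ± 126 CPM (SD, n = 3) in challenged cells, giving a log2 fold change of -2.31 (95% interval -2.46 to -2.17, adjusted p = 1.62e-10 from edgeR). The level in controls was thus 4.96-fold that after the challenge, with an interval of 4.49 to 5.48. With each library left out in turn, its log2 fold change lay between -2.38 and -2.22.

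Col1a2, the partner chain in the type I helix, was counted 656, 897 and 788 times after the challenge and 5733, 2352 and 3889 times in the control libraries. The groups did not overlap, but the controls were widely spread, the first holding more than the second by far. In every library Col1a2 was counted far less often than Col1a1. Whether its row holds all the reads of Col1a2 was not tested. Its level was 43.5 ± 7.36 CPM (SD, n = 3) after the challenge and 219 ± 97.6 CPM (SD, n = 3) in controls. The log2 fold change was -2.33 (95% interval -2.89 to -1.77, adjusted p = 9.18e-05 from edgeR), close to that of Col1a1 but with a wider interval. With robust dispersion estimates the adjusted p of Col1a2 was 0.112, over a range of 6.47e-08 to 0.112 for all alternatives, and with each library left out the log2 fold change lay between -2.61 and -1.95.

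The spread of Col1a2 in controls was the widest of the tested chains. Its coefficient of variation was 44.5% in controls and 16.9% after H3CIT+dsDNA. For Col1a1 these values were 2.52% and 11.7%. Over the 11 chains outside type I with a mean of at least 1000 counts, the coefficient of variation in controls ran from 0.423% to 5.68%, with a median of 2.62%. Over all 26 tested chains outside type I the median in controls was 4.91% and the highest value 29.4%, that of Col15a1. The cause of the spread in Col1a2 was not tested.

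The promoter of Col1a2 is shown because Col1a2 is one of the 2 chains that fell, and the stretch between Col4a1 and Col4a2 is shown as that of a pair that was not called. The sequences are RefSeq's, on the rat build GRCr8, which is later than the build the authors mapped to. The first runs from 250 to 141 bases before the annotated start of Col1a2, at chr4:33518307-33518416 on the plus strand. Unlike the type IV stretch, this one does not reach the start, and the bases between are not shown. The other is the 76 bases between the annotated starts of Col4a1 and Col4a2, which are read in opposite directions, at chr16:84885521-84885596, written on the strand of Col4a1. Capitals mark CCAAT boxes (CCAAT, or ATTGG on the opposite strand), TATAAA and GC boxes (GGGCGG, or CCGCCC on the opposite strand).
Col1a2: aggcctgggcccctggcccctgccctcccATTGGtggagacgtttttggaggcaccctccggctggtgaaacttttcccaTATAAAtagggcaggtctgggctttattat
Col4a1 and Col4a2: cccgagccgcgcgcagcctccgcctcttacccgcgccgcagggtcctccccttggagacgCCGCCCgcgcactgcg
The Col1a2 stretch held a CCAAT box and a TATAAA, and the type IV stretch held a GC box. Both Col1a2 motifs thus lay at least 141 bases before its annotated start. Whether that start is the one used in these cells was not tested. Windows of 300 bases, 250 before and 50 after the start, were at hand for 35 of the 44 genes, and not for Col1a1, Col3a1, Col2a1, Col12a1, Col14a1, Col22a1, Col25a1, Col6a2 and Col9a3. CCAAT on either strand was found in 11 of the 35 genes and in 37.5% of all 33469 windows, TATAAA in 4 genes and 14.2% of windows, and GGGCGG in 19 genes and 33.1% of windows. The STAT-type motif TTCNNNGAA was found in 1 of the 35 genes, Col6a5, and in 8.87% of all windows. A gene was counted when any of its windows held the motif, while the percentages are of single windows, so the units differ. Col17a1, which was not called, held both CCAAT and TATAAA, as Col1a2 did. The windows of Col4a1 and Col4a2, also not called, held CCAAT too, though not within the 76 bases shown. A match of these letters is a description of the window and not a binding site.

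**Figure D1:**
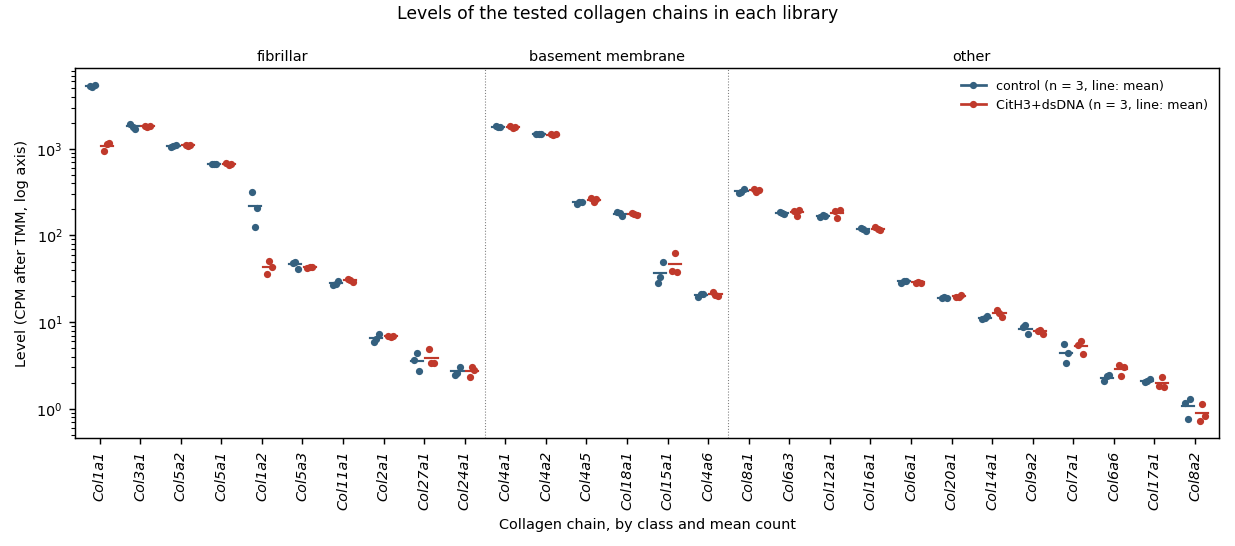
Level of each of the 28 tested collagen chains in every library, in CPM after TMM on a log axis, not corrected for gene length. Points are libraries and lines are means of 3, with controls in blue and H3CIT+dsDNA in red. For Col1a1 and Col1a2 the red points lie well below the blue ones, while in the other chains both groups lie at nearly the same level.

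The other fibrillar chains did not follow type I. Of the 11 fibrillar chains 10 were tested, and the 8 outside type I had log2 fold changes between -0.11 and 0.11 and adjusted p-values of at least 0.492 from edgeR. Col3a1, whose product lies beside type I collagen in the fibrils of the arterial wall, held 33323, 31620 and 32982 counts in challenged libraries, with 34313, 33538 and 31864 in the controls. Challenged and control libraries were intermingled. The log2 fold change of Col3a1 was 0.00 with a 95% interval from -0.08 to 0.08, an interval that lies far from the fall of Col1a1.
Col5a1 and Col5a2 encode chains of type V collagen, which is found in the core of type I fibrils and limits their diameter. Col5a1 was counted 12391, 11590 and 12069 times with the challenge and 11830, 12368 and 12405 times without it (log2 fold change 0.01, 95% interval -0.06 to 0.07). For Col5a2 the libraries held 20319, 18921 and 20145 counts with and 18934, 20097 and 20349 without (log2 fold change 0.03, 95% interval -0.04 to 0.10). In both genes the groups overlapped.
The less counted fibrillar chains were Col5a3 (log2 fold change -0.11), Col11a1 (0.11), Col2a1 (0.06), Col27a1 (0.10) and Col24a1 (0.01). Col11a1 encodes a type XI chain related to type V, and Col2a1 the chain of cartilage collagen. Col24a1 and Col27a1, with means of 49.3 and 67.8 counts, had 95% intervals from -0.44 to 0.46 and from -0.38 to 0.59, so that only a change well above these bounds was detectable at this depth.

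**Figure D2:**
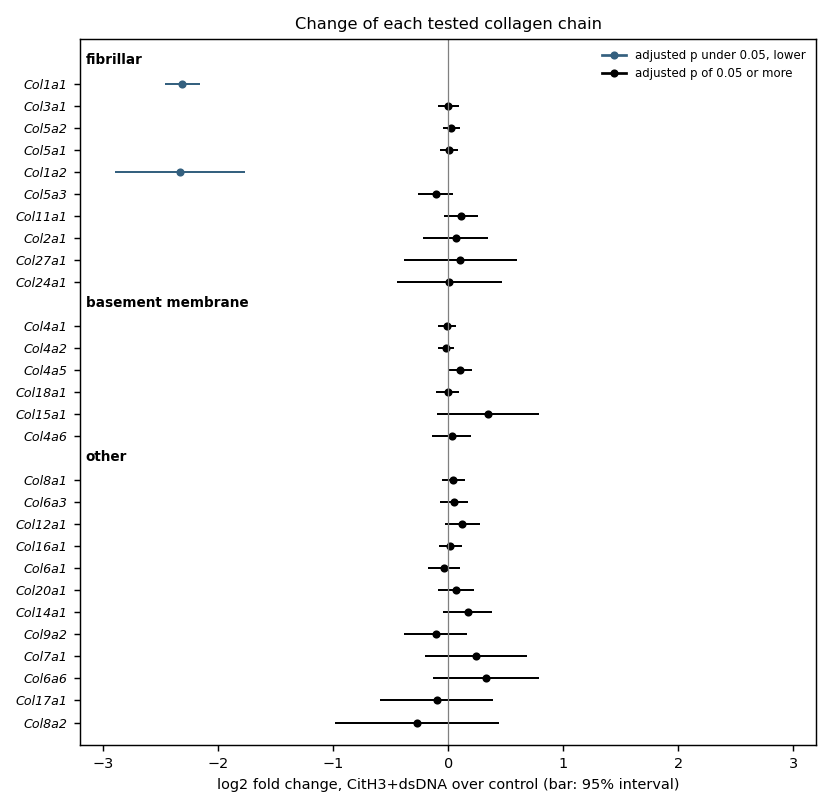
Log2 fold change of each tested collagen chain, H3CIT+dsDNA over control, with its 95% interval from edgeR, grouped by class and ordered by mean count. Col1a1 and Col1a2 stand at -2.31 and -2.33, and the other 26 chains lie between -0.27 and 0.35.

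None of the basement membrane chains was called, and the abundant ones were measured tightly. Col4a1 and Col4a2, whose products form the common type IV helix, lie next to each other in the RefSeq annotation. Challenged libraries held 33593, 30828 and 32090 counts of Col4a1, where the controls held 32475, 33520 and 32893 (log2 fold change -0.01, 95% interval -0.08 to 0.06). The counts of Col4a2 were 26979, 25231 and 26606 against 26501, 27706 and 27214 (log2 fold change -0.02, 95% interval -0.08 to 0.04). In both, challenged and control libraries were intermingled.
Col4a5, an X-linked type IV chain, was counted 4946, 4281 and 4786 times in challenged and 4173, 4569 and 4567 times in control libraries (log2 fold change 0.10, 95% interval 0.01 to 0.20). Its unadjusted p-value from edgeR was 0.0394 and its adjusted p 0.326, and it was the single chain outside type I with an unadjusted p-value under 0.05, which 13.9% of all genes tested had. Col4a6 had a log2 fold change of 0.03.
Col18a1, whose product carries the endostatin fragment at its end, had a log2 fold change of -0.01 (95% interval -0.10 to 0.09). Col15a1, a relative of Col18a1, had a log2 fold change of 0.35, with counts of 713, 1118 and 689 against 509, 608 and 910. These groups overlapped, the highest control lying above 2 of the challenged libraries, and the interval ran from -0.09 to 0.78 (adjusted p = 0.481 from edgeR). The value of Col15a1 rested on single libraries: it was 0.07 without H3CIT+dsDNA replicate 2, 0.20 without control replicate 1 and 0.61 without control replicate 3, and was called in none of these.

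Among the other chains 12 of 25 were tested and none was called, with log2 fold changes between -0.27 and 0.33. Col8a1, a short-chain collagen of the subendothelium that smooth muscle cells secrete after injury, was counted 6225, 5659 and 6087 times with the challenge and 5497, 5951 and 6309 times without it (log2 fold change 0.05, 95% interval -0.05 to 0.14). Col6a3, a chain of the type VI microfibrils, had counts of 3496, 2971 and 3549 against 3294, 3332 and 3251 (log2 fold change 0.05, 95% interval -0.07 to 0.16). For both genes the ranges of the groups overlapped.
Col12a1 encodes a FACIT collagen that coats type I fibrils. Challenged libraries held 3442, 2779 and 3572 counts of it and the controls 2921, 3169 and 3076, so that 2 challenged libraries lay above the controls and the third below them. The log2 fold change of Col12a1 was 0.12 (adjusted p = 0.442 from edgeR), but without H3CIT+dsDNA replicate 2 it was 0.21 and called (adjusted p = 0.0195 from edgeR).
The FACIT chains Col16a1 (log2 fold change 0.02), Col20a1 (0.07), Col14a1 (0.17) and Col9a2 (-0.11), the microfibril chains Col6a1 (-0.04) and Col6a6 (0.33), the anchoring fibril chain Col7a1 (0.24), the membrane-spanning Col17a1 (-0.10) and the short-chain Col8a2 (-0.27) completed the group. Of these, Col20a1 was the one whose groups did not overlap, with counts of 358, 348 and 372 against 338, 361 and 350 that separated only after scaling. With Col1a1 and Col1a2 that makes 3 of the 28 tested chains with groups apart, where 19.1% of all genes tested had groups apart. The type I pair was apart as lower, which 8.43% of all genes were, and Col20a1 as higher, which 10.7% were. The widest interval of any tested chain was that of Col8a2, from -0.97 to 0.44, at a mean of 17.8 counts.

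The 16 chains left untested never exceeded 12 counts in a library. Col23a1 had no count in any library, and 3 counts over all libraries, the limit that a count of 0 allows, would be 0.0275 CPM. Col4a3, Col4a4, Col6a4, Col6a5, Col9a1, Col9a3, Col10a1, Col13a1, Col19a1, Col22a1, Col25a1, Col26a1 and Col28a1 were detected at this low level. Col6a2, the usual partner of Col6a1, had counts of 1, 3 and 2 against 2, 0 and 10. Col6a1 was counted between 508 and 558 times in every library.
Col11a2, named after its values were seen, was counted 8, 6 and 7 times in challenged libraries and 1, 1 and 1 times in the controls. Scaled to the library totals, the summed counts of 21 and 3 gave a ratio of 7.23, with an exact 95% interval of 2.16 to 37.9 that covers counting error only. With no filter on low counts its adjusted p from edgeR was 0.0873, so Col11a2 was not called there either.

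The fall of type I lowered the share of all counts that lay on collagen genes. In controls the 44 chains took 1.39%, 1.35% and 1.38% of the library, and after H3CIT+dsDNA 0.956%, 0.935% and 0.962%. Type I took 0.552% ± 0.0218 (SD, n = 3) of the counts in controls and 0.113% ± 0.0132 (SD, n = 3) after the challenge. All other chains together took 0.821% ± 0.00643 (SD, n = 3) in controls and 0.838% ± 0.0206 (SD, n = 3) after the challenge, a difference no larger than the spread of the challenged libraries. As a share of the collagen counts, type I made up 40.2% ± 0.992 (SD, n = 3) in controls and 11.9% ± 1.42 (SD, n = 3) after H3CIT+dsDNA. These shares are of counts, so longer transcripts weigh more, and they are given as a description with no test.

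**Figure D3:**
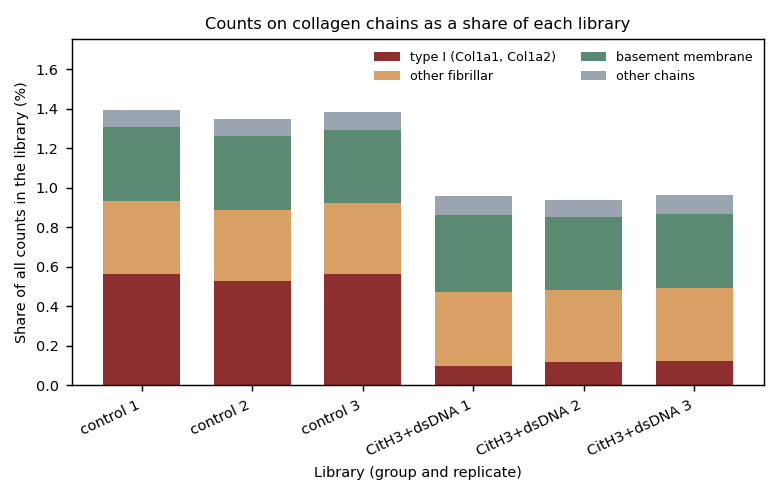
Counts on collagen chains as a percentage of all counts in each library, stacked by class. The segment of type I shrinks from 0.552% on average in the 3 controls to 0.113% in the 3 H3CIT+dsDNA libraries, while the segments of the other classes keep nearly the same height.

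Ratios of chains within a library do not depend on how libraries are scaled. For Col3a1 to Col1a1 the count ratio was 0.358, 0.348 and 0.314 in controls and 1.97, 1.59 and 1.55 after H3CIT+dsDNA, so that the ratio was higher in every challenged library than in any control. Longer transcripts give more counts, so these are not ratios of molecules. The log2 ratio of Col3a1 to Col1a1 was higher by 2.32 after the challenge (exact permutation test, two-sided, p = 0.1, adjusted p = 0.5 over the 5 ratios compared). With 3 libraries against 3, this exact test cannot give a p under 0.1, so none of the 5 ratios could pass. As Col3a1 itself had a log2 fold change of 0.00, its higher ratio restates the fall of Col1a1 and adds no separate evidence.
The ratio of Col1a2 to Col1a1 was 0.0598, 0.0244 and 0.0384 in controls and 0.0388, 0.0452 and 0.0372 after the challenge, the challenged values lying inside the control range. The difference in log2 ratio was 0.07 (exact permutation p = 0.9), with an SD of 0.65 in the controls.
In type V and type IV the partner chains held their ratios closely. The log2 ratio of Col5a2 to Col5a1 was 0.72 ± 0.02 (SD, n = 3) after H3CIT+dsDNA and 0.70 ± 0.02 (SD, n = 3) in controls. That of Col4a2 to Col4a1 was -0.29 ± 0.02 (SD, n = 3) against -0.28 ± 0.01 (SD, n = 3). The exact permutation p-values of these differences were 0.3 and 0.7. For Col6a2 to Col6a1, which rests on at most 10 counts of Col6a2, the log2 ratio in controls had an SD of 2.21 and the exact permutation p was 1.

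**Figure D4:**
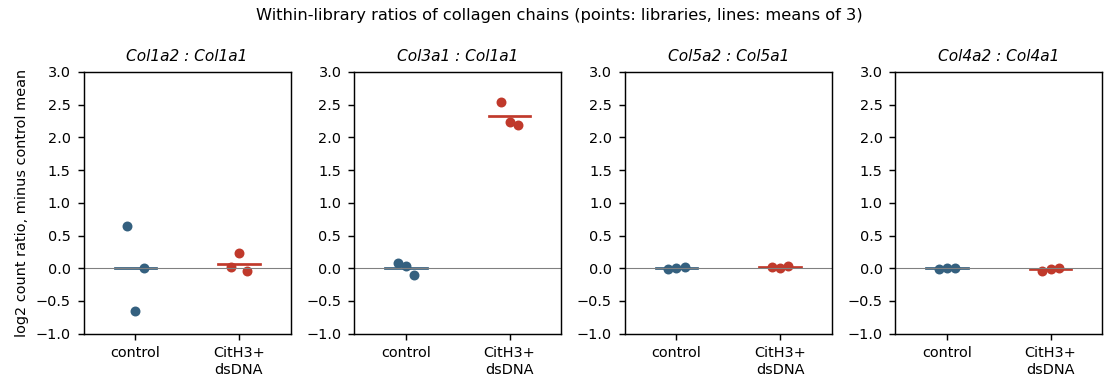
Log2 count ratio of partner chains within each library, minus the control mean, for 4 pairs with enough counts. Points are libraries and lines are means of 3. The ratio of Col3a1 to Col1a1 is 2.32 higher after H3CIT+dsDNA, the controls of Col1a2 to Col1a1 are widely spread, and the means of the type V and type IV pairs differ from control by 0.02 and -0.01.

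The genes that make, export, cross-link, bind and degrade collagen were taken as a list of 50, of which 49 are in the table and 43 were tested. None was called lower and 2 were called higher, both proteases, where 2.2% of all genes tested were called in either direction. The list was chosen with earlier results of these data known, so this comparison with all genes is a description and not a test. The groups did not overlap in 17 of the 43, 8 lower and 9 higher after H3CIT+dsDNA, where 19.1% of all genes tested had groups apart, and the median log2 fold change of the list was 0.00.
In the endoplasmic reticulum, the hydroxylases and chaperones that modify and fold new chains had none called of 16 tested. Of all genes tested, 2.2% were called. Groups lay apart as lower in 5 of the 16 and as higher in 1, where 8.43% and 10.7% of all genes tested did. P4hb, a subunit of prolyl 4-hydroxylase, had a log2 fold change of -0.03 (95% interval -0.10 to 0.04). Serpinh1, the collagen chaperone HSP47, had counts of 50742, 49504 and 49149 against 52367, 53246 and 52859. Its log2 fold change was -0.06 (95% interval -0.12 to 0.01, adjusted p = 0.413 from edgeR), a difference that was small although the groups were apart.
Among the 9 tested genes of secretion and procollagen cleavage, Sparc, a matrix protein that binds procollagen, had a log2 fold change of -0.04, and Pcolce, the enhancer of the procollagen C-proteinase, of -0.08. Among the 6 cross-linking genes, Lox, the lysyl oxidase that links collagen and elastin, had 0.15 (adjusted p = 0.0748 from edgeR) and Loxl1 -0.07. Of the 7 receptors, Itgb1, the common β subunit of the collagen-binding integrins, had 0.04, and Ddr2, a receptor kinase for fibrillar collagen, had 0.14 (adjusted p = 0.0655 from edgeR). Receptor groups lay apart as higher in 3 of the 7 and as lower in 0, where 10.7% and 8.43% of all genes tested did. The log2 fold change was positive in 6 and negative in 1. It was 0.47 for Itga2 and 0.27 for Itga1 (adjusted p = 0.345 and 0.235 from edgeR). Without control replicate 3 the log2 fold change of Lox was 0.19 and was called (adjusted p = 0.00562 from edgeR), and without H3CIT+dsDNA replicate 2 that of Ddr2 was 0.17 and was called (adjusted p = 0.0314 from edgeR).
Of the 5 tested genes of collagen degradation, Mmp8, the neutrophil collagenase, was counted 45, 56 and 67 times in challenged libraries and 17, 15 and 6 times in the controls, and rose (log2 fold change 2.17, adjusted p = 0.00217 from edgeR). Mmp9, a gelatinase that acts on unwound collagen, had counts of 175, 180 and 179 against 30, 38 and 30 and rose as well (log2 fold change 2.47, adjusted p = 1.88e-07 from edgeR). Mrc2, the receptor that takes up collagen for lysosomal breakdown, and Mmp14, a membrane-bound collagenase, had log2 fold changes of -0.02 and -0.07.

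**Figure D5:**
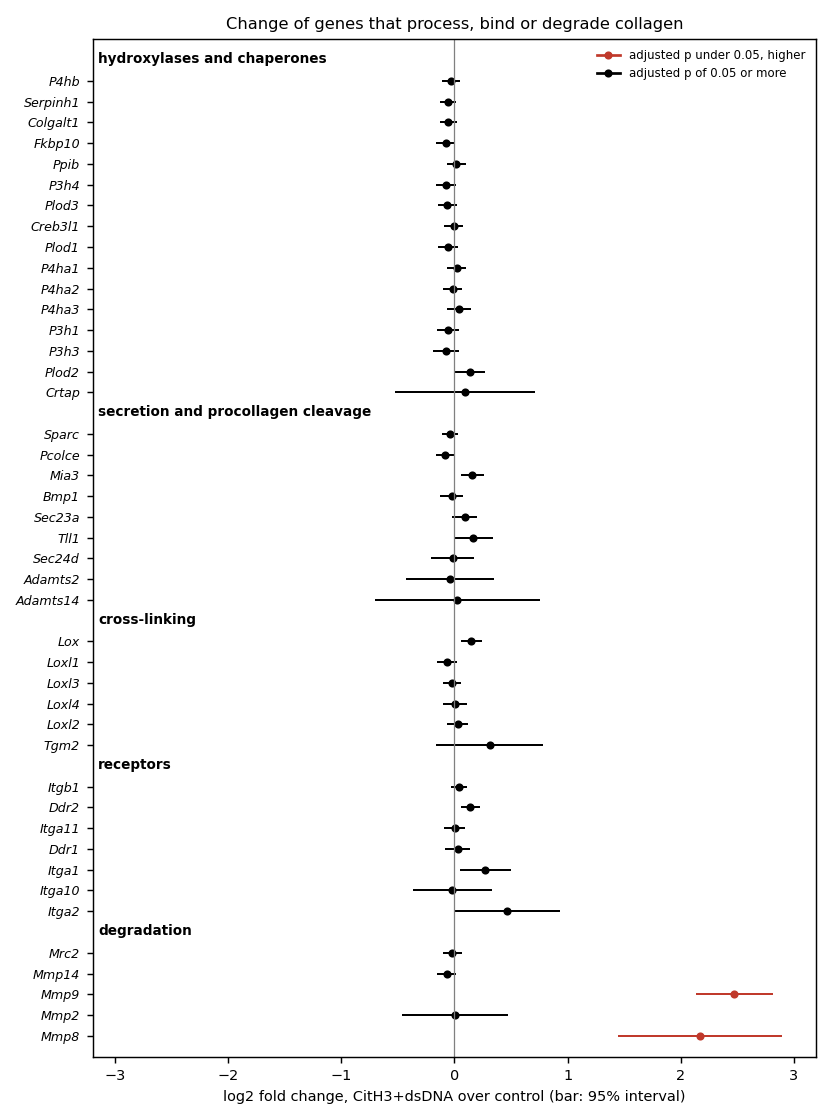
Log2 fold change with its 95% interval for the 43 tested genes that process, bind or degrade collagen, grouped by role and ordered by mean count within each. Mmp9 and Mmp8 stand at 2.47 and 2.17, and the other 41 genes lie between -0.08 and 0.47.

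Library totals lay between 17573905 and 18742395 counts. The identity of the cells was read from marker lists in the same libraries. Of 7 smooth muscle markers, 4 fell, with log2 fold changes of -1.57 (Cnn1), -0.69 (Acta2), -0.40 (Tagln) and -0.21 (Smtn). Myocd rose (1.09), and Myh11 and Lmod1 were not called. Of all genes tested, 0.262% were called lower and 1.94% higher, but the markers too were chosen with earlier results of these data known. The summed level of the smooth muscle markers was 5557 to 6104 CPM after H3CIT+dsDNA and 8281 to 9026 CPM in controls. Most of this sum was Acta2 (means of 3115 against 5025 CPM) and Tagln (2032 against 2690 CPM). Acta2 can share reads with other actin genes. The 6 fibroblast markers, cells that also make type I collagen, summed to 2.92 to 4.36 CPM after the challenge and 2.80 to 5.49 CPM in controls, none of the 2 tested being called. Endothelial markers summed to 8.44 to 8.91 CPM against 9.81 to 10.5 CPM, with Kdr at no more than 1 count in any library. Macrophage markers summed to 72.2 to 74.5 CPM against 73.4 to 76.5 CPM, with Ptprc and Itgam at no more than 1 count. Most of the macrophage sum was Cd14 (means of 52.1 against 52.3 CPM) and Csf1r (18.1 against 19.7 CPM). Cd68 stood at 0.874 against 0.762 CPM, Adgre1 at 1.59 against 1.36 CPM and Lyz2 at 0.411 against 0.731 CPM. In bulk RNA, fewer cells that express type I collagen and less of its RNA per cell cannot be told apart, and the part of the smooth muscle markers in the fall of type I was not tested.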

How the data were processed

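RNA of 6 libraries of RASMCs was sequenced, 3 after H3CIT+dsDNA and 3 controls. Reads of stranded mRNA libraries had been mapped by the authors to Rnor6.0 (TopHat 2.1.1 per the submitters' processing notes). The deposited values are raw read counts of genes from HTSeq. The strand setting of the counting is not given in the sources used here, so overlapping and antisense genes can share reads. No line lacked a gene name.

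Samples were grouped by their labels. Genes with low counts were removed by filterByExpr over the whole table. TMM scaling and edgeR's quasi-likelihood test (edgeR 4.0.16, R 4.3.3) followed, after a check on simulated counts. There, 194 of 200 genes given a log2 change of size 1.5 were called, as were 17 unchanged genes. The 95% intervals of the changed genes held the true value in 93.5%. A log2 fold change is the unshrunken coefficient, its standard error that coefficient over the root of F, and its 95% interval uses the t distribution with the fit's degrees of freedom. Ratios had 0.5 added to each count. Intervals of low counts cover counting error only.

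Chain classes, the pathway list and the markers were chosen with earlier results of these data known. All chains were accounted for. Of the pathway list, called genes and the 2 most counted of each role were named, and other genes by their values. Alternatives were DESeq2 1.42.0, limma-voom (limma 3.58.1), 3 scalings, 2 filters, robust dispersion, replicate number as a block, and leaving out each library. Symbols of all 44 chains matched RefSeq. Gene lengths of the authors' build were not used here, so shares and ratios of chains are of counts and are compared between groups, not as levels of different genes.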

Additional observations from a re-analysis of the deposited data

How the results depend on the processing

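Col1a1 stayed lower and called in all 15 alternatives. Col1a2 stayed lower in all 15 and lost its call with robust dispersion estimates, where 1 chain rather than 2 was called lower, and the cause was not tested. With each library left out in turn, 2 chains were called lower each time, and from 0 to 1 higher, the 1 being Col12a1 without H3CIT+dsDNA replicate 2. Of 390 values of the 26 other tested chains under alternatives, 389 kept their side of the threshold, and 10 of these chains, none of them called, changed sign at least once. Genes of the pathway list called higher numbered 2, against 4 with library size alone and 4 with DESeq2 (with Lox and Ddr2), 3 with no filter on low counts (with Lox), 5 with robust dispersion (with Mia3 too) and 1 with at least 10 counts in every library, where Mmp8 was not tested. With each library left out they numbered 2 to 5. Without H3CIT+dsDNA replicate 2 these were Ctsk, Ddr2, Itga1, Mmp8 and Mmp9, and without control replicate 3 Lox, Mia3, Mmp8 and Mmp9. None was called lower in any alternative.

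Libraries of the same replicate number were not paired. Their deviations from the mean of each group correlated at -0.0458, 0.00452 and 0.0355 across genes. With a replicate block 2 chains were called lower and 0 higher, and the log2 fold changes of Col1a1 and Col1a2 were -2.32 and -2.25. Without a pseudocount the ratio of Col6a2 to Col6a1 has no value in control replicate 2, where Col6a2 was at 0, and that comparison was not run. Low counts, at most 12 in any library, limit what can be said of the 16 untested chains. Why their counts were low was not tested.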
